A study of Mus musculus with 6 samples.

Results

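The comparison described here set D2.OR BORG cells that also carried a guide RNA against Trim28 (BORG/sgTRIM28) against D2.OR BORG cells, and asked what loss of TRIM28 changed in cells that express BORG. D2.OR cells are a mouse mammary tumor line that tends to stay latent after dissemination, and BORG is a long noncoding RNA. The 2 BORG/sgTRIM28 arrays came from BORG-expressing cells with the guide, the 2 BORG arrays from cells expressing BORG, and a further 2 arrays from parental D2.OR cells with a vector control. All cells had grown for 7 days in 3D-culture on a Cultrex cushion, and the labels do not state if BORG and parental cells received a control guide. Both groups compared thus carry BORG, and nothing in the sources used here says that either is a single clone. Gene expression was measured as total RNA on Affymetrix Mouse Gene 2.0 ST arrays. Of 41345 transcript clusters, 23521 had exactly 1 gene symbol in the platform annotation, and 22180 genes remained once each was represented by the cluster that was brightest on average across all 6 arrays.

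TRIM28, also known as KAP1, is a nuclear co-repressor. Zinc finger proteins with a KRAB domain bring it to DNA, where it recruits histone methylation by SETDB1 and HP1 proteins, and it is best known for silencing endogenous retroviruses, imprinted regions and zinc finger gene clusters. It is modified by SUMO, which is needed for part of this repression. A change in transcript after its loss can be direct or can follow from changes in other genes, and an array of steady-state RNA does not separate these.

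The Trim28 transcript had log2 signals of 9.50 and 9.53 in BORG/sgTRIM28 cells, 9.88 and 9.96 in BORG cells and 10.49 and 10.68 in parental cells. The BORG minus parental change of -0.67 passed the threshold (limma adjusted p = 0.0271). The BORG/sgTRIM28 arrays were lower than the BORG arrays without overlap, but the log2 change of -0.41 (standard error 0.12, limma adjusted p = 0.0911) missed the threshold. Since Cas9 cuts can disrupt the protein while the RNA persists, this is a weak check of the label. The genes on either side of Trim28, Chmp2a and Zbtb45, had log2 changes of 0.07 and 0.03 (limma adjusted p = 0.767 and 0.928). The BORG RNA itself was not analysed here, as no cluster could be tied to it.

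Array medians lay between 5.18 and 5.24 on the log2 scale. The BORG replicates differed more from each other than the others did, with 159 genes apart by more than 1 log2 unit, against 15 between the BORG/sgTRIM28 and 18 between the parental replicates. No detection values were used, so the signal of 1390 olfactory and vomeronasal receptor genes, which mammary cells are not known to use, served as a guide to dim probes, and 12246 genes lay above the 95th percentile of that set. Of 9 epithelial markers 3 fell, the keratins Krt8, Krt14 and Krt18 by log2 changes of -1.24, -1.12 and -1.10. Epcam, by contrast, was between 4.68 and 5.01 on all 6 arrays, below that percentile, so the label of mammary tumor cells rests on the keratins and on Cdh1 (6.84 and 6.83 in BORG/sgTRIM28, 6.50 and 6.34 in BORG cells). Of 18 leukocyte markers only Cd14 changed (-1.66), and Ptprc and Adgre1 stayed under 4 on every array. Of 10 endothelial markers 0 passed the threshold. The summed signal of the epithelial markers was 11.68 and 11.70 on the log2 scale in BORG/sgTRIM28 cells, 12.81 and 12.70 in BORG cells and 11.44 and 11.51 in parental cells, and that of the fibroblast markers was 12.25 and 12.24 in BORG/sgTRIM28 cells, 11.72 and 11.76 in BORG cells and 12.47 and 12.48 in parental cells. Of the 12 fibroblast markers only Pdgfra and Col1a1 lay above that percentile on average, and they moved in opposite directions. Pdgfra averaged 12.03 in BORG/sgTRIM28 cells, 11.04 in BORG cells and 12.29 in parental cells, whereas Col1a1 had a log2 change of -1.29. The fibroblast sum thus mainly reflected Pdgfra. The samples were whole cultures, so fewer cells of a kind and less RNA per cell cannot be told apart. The part of such shifts in the results was not tested.

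Loss of TRIM28 changed more genes downward than upward. By limma with Benjamini-Hochberg adjustment over all clusters, 2777 of 22180 genes (12.5%) passed an adjusted p of 0.05, of which 1126 (5.08% of all) rose in BORG/sgTRIM28 relative to BORG cells and 1651 (7.44%) fell. The falls were also the larger changes. The median log2 change was 0.73 among the genes that rose and -0.96 among those that fell, and 154 of the falls but 17 of the rises exceeded 2 log2 units, that is 4-fold. By the cutoffs the study used (2-fold with an unadjusted threshold of 0.05), 259 genes (1.17%) were higher and 806 (3.63%) lower. The median over all genes was 0.06. The number of arrays limits the precision. The 2777 calls came to 702 without BORG/sgTRIM28 replicate 1, 585 without its replicate 2 and 1201 without BORG replicate 1, and the methods' t-test made 0 calls after adjustment with 4313 genes at an unadjusted p under 0.05.

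**Figure D1:**
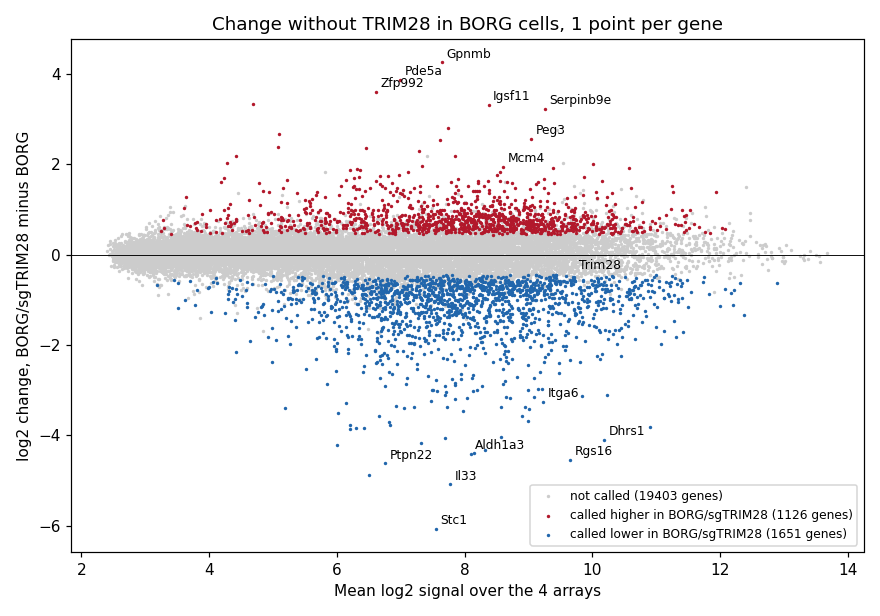
Each point is a gene, with its mean log2 signal over the 4 arrays on the x axis and its log2 change (BORG/sgTRIM28 minus BORG) on the y axis. Red points are the 1126 genes called higher and blue points the 1651 called lower, and the falls reach -6.06 (Stc1) where the rises reach 4.26 (Gpnmb).

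The largest falls included secreted factors, signaling regulators and surface molecules. Stc1, a secreted glycoprotein hormone, had log2 signals of 4.20 and 4.83 in BORG/sgTRIM28 cells, 11.27 and 9.89 in BORG cells and 6.00 and 6.24 in parental cells. Its log2 change of -6.06 (standard error 0.45, limma adjusted p = 0.00165) was the largest of all genes, with no overlap between the groups. Il33, a cytokine released by damaged epithelium, had 5.23 and 5.24 in BORG/sgTRIM28 cells, against 10.52 and 10.11 in BORG cells and 6.03 and 6.31 in parental cells. It fell by 5.08 on the log2 scale (standard error 0.17, limma adjusted p = 0.000324). The Il33 replicates were nearly identical without TRIM28 and close to each other in BORG cells.

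Rgs16, a brake on G protein signaling, measured 7.45 and 7.31 in BORG/sgTRIM28 cells, 11.83 and 12.01 in BORG cells and 7.92 and 8.05 in parental cells (log2 change -4.54, limma adjusted p = 0.000322). Aldh1a3, which makes retinoic acid, measured 5.94 and 5.85 in BORG/sgTRIM28 cells, 10.53 and 10.05 in BORG cells and 6.11 and 5.90 in parental cells (-4.40, limma adjusted p = 0.000392). Havcr2, the immune checkpoint receptor TIM-3, measured 5.09 and 5.37 in BORG/sgTRIM28 cells, 9.64 and 9.16 in BORG cells and 7.54 and 7.60 in parental cells (-4.17, limma adjusted p = 0.000441). Havcr2 thus lay below both other groups without TRIM28, and its BORG/sgTRIM28 minus parental change of -2.34 passed the threshold as well (limma adjusted p = 0.0244). Among the rest of the 25 largest falls were Ptpn22 (-4.62), a phosphatase of lymphocyte receptor signaling, Ramp3 (-4.38), a partner of calcitonin family receptors, Fgfbp1 (-4.22), a carrier of fibroblast growth factors, and Sema7a (-4.06), a membrane-bound semaphorin. Ecm1, an extracellular matrix protein, fell by 3.82, the chemokine Ppbp by 3.77, the protease inhibitor Spink5 by 3.70, the chloride channel Ano1 by 3.56 and the keratins Krt6a and Krt20 by 3.83 and 3.51. None of the 25 lost its call under any of the limma alternatives.

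The largest rises included a lysosomal glycoprotein, a phosphodiesterase and zinc finger genes. Gpnmb, a transmembrane glycoprotein of lysosomes and melanosomes, had log2 signals of 9.75 and 9.79 in BORG/sgTRIM28 cells, 5.29 and 5.72 in BORG cells and 9.26 and 9.33 in parental cells. Its log2 change was 4.26 (standard error 0.16, limma adjusted p = 0.000373), and in BORG/sgTRIM28 cells it was 0.47 above parental cells, which did not pass (limma adjusted p = 0.505). Gpnmb was therefore low on the BORG arrays alone. Pde5a, which degrades cyclic GMP, showed another pattern, with 8.97 and 8.87 in BORG/sgTRIM28 cells, 5.14 and 4.96 in BORG cells and 5.22 and 5.26 in parental cells. It rose by 3.87 over BORG cells (standard error 0.12, limma adjusted p = 0.000322) and by 3.68 over parental cells (limma adjusted p = 0.0028), and BORG and parental cells differed by -0.19 (limma adjusted p = 0.43).

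Other rises followed one of these patterns or lay between them. Fbxw19, an F-box gene, the pseudogene Smarca5-ps and Pdk4, which inhibits the pyruvate dehydrogenase complex, were higher in BORG/sgTRIM28 than in BORG cells by 2.19, 2.02 and 1.89 and higher than in parental cells by 2.05, 1.83 and 2.29 (limma adjusted p = 0.0156, 0.0121 and 0.0139 for the second). Pdk4 measured 7.21 and 7.31 in BORG/sgTRIM28 cells, 5.51 and 5.22 in BORG cells and 4.89 and 5.05 in parental cells. Its level without TRIM28 was above every other array. Serpinb9e and Serpinb9f, of a rodent family of granzyme inhibitors, rose by 3.23 and 2.29 over BORG cells and were at 0.02 and 0.04 from parental cells (limma adjusted p = 0.994 and 0.973 for the second). Igsf11, an adhesion molecule of the immunoglobulin family, lay between, with 9.93 and 10.14 in BORG/sgTRIM28 cells, 6.63 and 6.80 in BORG cells and 8.87 and 8.96 in parental cells (3.32 over BORG cells, limma adjusted p = 0.000381). Serpinb9e and Serpinb9f belong to a cluster of near-identical copies, so their probes may share signal. Rragd, a GTPase that carries amino acid signals to mTORC1 on lysosomes, rose by 2.37, the hormone gene Fgf21 by 2.19, Gpd1, glycerol phosphate dehydrogenase, by 1.96 and Hfe, a regulator of iron uptake, by 1.88. Fgf21 (5.97 and 7.54 in BORG cells), Fam171b, Reep6 and Atf3 had BORG replicates more than 1 log2 unit apart and lost their call with the 4 arrays alone, which gives the same values as leaving out a parental array, and without either BORG/sgTRIM28 replicate. Olfr1189, a gene of the olfactory receptor set used as the guide to dim probes, rose by 2.68, with 6.44 and 6.42 in BORG/sgTRIM28 cells, 3.97 and 3.52 in BORG cells and 5.51 and 5.59 in parental cells (limma adjusted p = 0.000963), and 8 of the 1390 genes of that set rose and 4 fell. The contrasts between these 3 groups share arrays. Over all genes, 36 (0.162%) differed between BORG/sgTRIM28 and parental cells and 2152 (9.7%) between BORG and parental cells at an adjusted p under 0.05 in limma.

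**Figure D2:**
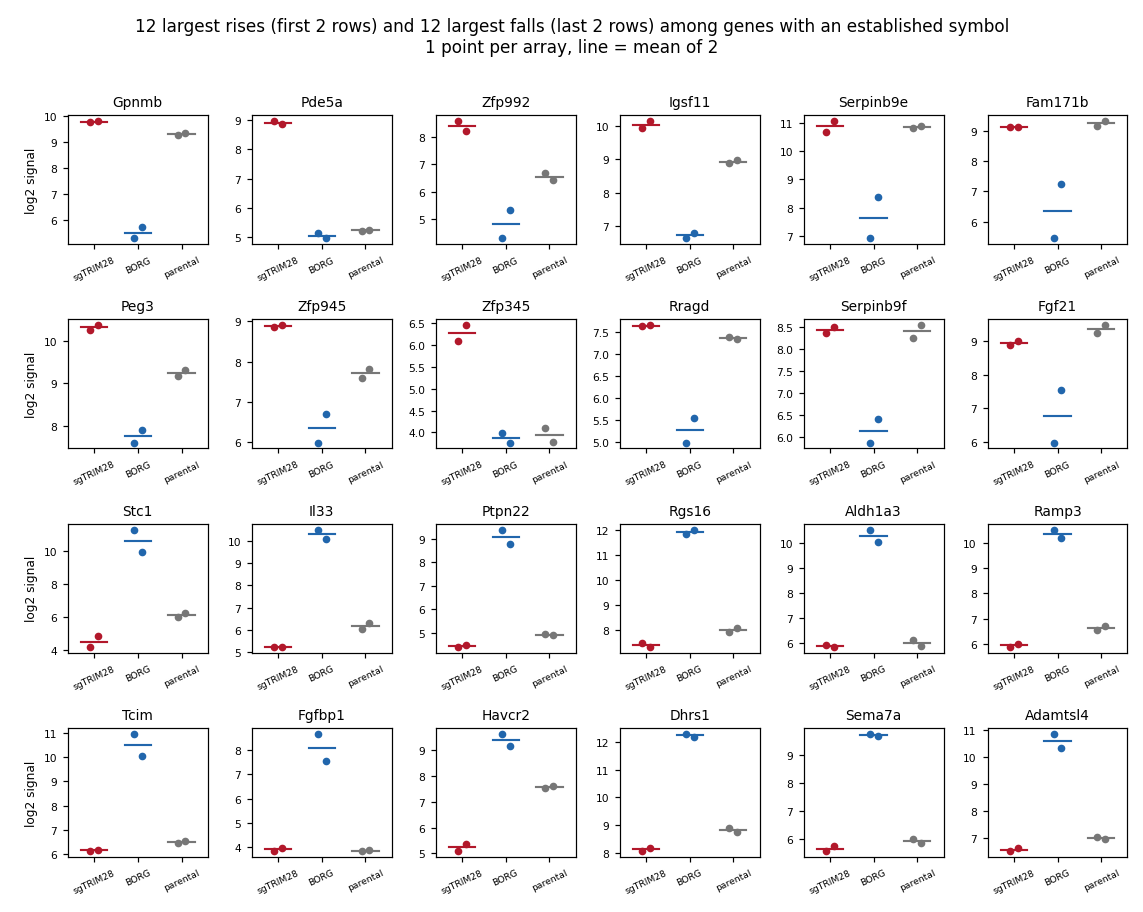
Log2 signal of each array for the 12 largest rises (upper rows) and 12 largest falls (lower rows) among called genes with an established symbol, olfactory receptors, microRNAs and clone names left out, with BORG/sgTRIM28 on the left, BORG in the middle and parental cells on the right, and a line at the mean of each pair. Gpnmb, Serpinb9e and Serpinb9f are low in BORG cells alone, Pde5a and Zfp345 are high in BORG/sgTRIM28 cells alone, and the falls are high in BORG cells.

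Zinc finger genes, which include the partners of TRIM28, rose more often than they fell. Of 362 genes with a Zfp symbol 40 were higher and 6 lower, with a median log2 change of 0.14 against 0.06 over all genes. The share called was 12.7%, close to the 12.5% of all genes. By direction, 11% were higher against 5.08% of all genes, and 1.66% were lower against 7.44%. Zfp992 had log2 signals of 8.60 and 8.24 in BORG/sgTRIM28 cells, 4.28 and 5.34 in BORG cells and 6.67 and 6.43 in parental cells (log2 change 3.61, limma adjusted p = 0.00356). Zfp945 had 8.85 and 8.90 in BORG/sgTRIM28 cells, against 5.99 and 6.71 in BORG cells and 7.60 and 7.82 in parental cells (2.53, limma adjusted p = 0.00354). For both genes the BORG/sgTRIM28 arrays were highest and the BORG arrays lowest. Zfp345 was different, with 6.08 and 6.45 in BORG/sgTRIM28 cells, 3.98 and 3.77 in BORG cells and 4.10 and 3.78 in parental cells (2.39, limma adjusted p = 0.00183), and it also exceeded parental cells (limma adjusted p = 0.0244). The falls were led by Zfp703 (-1.54), a co-repressor gene of luminal mammary cells, and Zfp385a (-1.45). Zfp genes are a large family with similar sequences, so single members are uncertain. Without BORG/sgTRIM28 replicate 1 or 2 the number higher came to 8 or 6, and without BORG replicate 1 to 14, while without BORG replicate 2 there were 34 higher and 16 lower.

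Other known partners and targets of TRIM28 were called at shares on both sides of the 12.5% of all genes. Those shares were 10.7% for the TRIM28 co-repressor complex, 20% of 15 SUMO pathway genes, 18.2% for imprinted genes and 4.26% for germline genes. Only 4 of 47 germline genes lay above the 95th percentile of the olfactory set, against 12246 of all 22180 genes. The germline share thus comes mostly from dim probes. Of 28 measured genes of its co-repressor complex 3 rose and 0 fell, Rbbp4, a histone chaperone of the NuRD complex, by 0.88, Tasor, of the HUSH complex, by 0.58 and Cbx1, an HP1 protein, by 0.49. Setdb1, the methyltransferase that TRIM28 recruits, had a log2 change of -0.02 (limma adjusted p = 0.954). In the SUMO pathway, the E3 ligase gene Pias3 fell by 1.03, while Rnf4, a ubiquitin ligase for sumoylated proteins, and Ranbp2, a nuclear pore SUMO ligase, rose by 0.72 and 0.54. Of 44 imprinted genes 5 rose and 3 fell. Peg3, a paternally expressed zinc finger gene, measured 10.26 and 10.36 in BORG/sgTRIM28 cells, 7.61 and 7.91 in BORG cells and 9.17 and 9.30 in parental cells. It rose by 2.56 (standard error 0.14, limma adjusted p = 0.00069), and Usp29, the neighbour that shares its imprinted domain, rose by 0.72 from a dim signal. Mest rose by 0.83 and Kcnq1ot1, the noncoding RNA of the Kcnq1 domain, by 0.69, whereas Igf2r and Cd81 fell by 0.67 and 0.75. Of 47 germline and early embryo genes 1 rose and 1 fell, Dppa2 (0.75) and Zscan4d (-1.09). These counts rest on single arrays. Without either BORG/sgTRIM28 replicate the complex had 0 calls, the imprinted genes 1 rise and 0 falls and the germline genes 0 calls, and without BORG replicate 2 the complex had 1 rise and 3 falls.

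Many genes of DNA replication rose, and the genes of mitosis that were called were all lower. Of 45 genes of replication licensing and S phase 23 were higher and 1 lower, with a median log2 change of 0.63. All 6 subunits of the replicative helicase, Mcm2 to Mcm7, were among the 23. Mcm4 had log2 signals of 9.52 and 9.64 in BORG/sgTRIM28 cells, 7.91 and 7.36 in BORG cells and 9.53 and 9.61 in parental cells (log2 change 1.94, limma adjusted p = 0.00423). Cdc6, which loads the helicase, had 7.63 and 7.71 in BORG/sgTRIM28 cells, 5.96 and 5.87 in BORG cells and 7.75 and 7.86 in parental cells (1.75, limma adjusted p = 0.001). Both genes were low in BORG cells alone. Mcm3, Mcm2, Mcm5 and Mcm7 rose by 1.67, 1.61, 1.60 and 1.59. The exception was Tk1, thymidine kinase, which fell by 1.16 with 6.74 and 6.85 in BORG/sgTRIM28 cells and 8.22 and 7.69 in BORG cells. Among 55 G2 and mitotic genes there were 10 falls (18.2%) and 0 rises, with 45 not called, at a median of -0.21. Ccnb2, a mitotic cyclin, had 7.47 and 7.35 in BORG/sgTRIM28 cells, 9.14 and 8.89 in BORG cells and 7.43 and 7.57 in parental cells (-1.60, limma adjusted p = 0.00229). Cdc25b, a phosphatase that starts mitosis, fell by 1.36, the kinesins Kif23 and Cenpe by 1.12 and 0.98 and the cytokinesis gene Anln by 0.90. The 23 S phase calls came to 12 or 10 without BORG/sgTRIM28 replicate 1 or 2, and the 10 mitotic calls to 1 or 2, and to 4 without BORG replicate 1.

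Several regulators of the cell cycle fell as well. E2f8, a repressor of E2F target genes, had log2 signals of 8.33 and 8.37 in BORG/sgTRIM28 cells, 10.33 and 10.23 in BORG cells and 8.26 and 8.30 in parental cells (log2 change -1.93, limma adjusted p = 0.00069). Ccnd1, encoding the G1 cyclin D1, had 9.27 and 9.24 in BORG/sgTRIM28 cells, 10.75 and 10.94 in BORG cells and 9.05 and 9.11 in parental cells (-1.59, limma adjusted p = 0.00158). The inhibitors of cyclin-dependent kinases Cdkn2b, Cdkn2d and Cdkn2a fell by 1.36, 1.20 and 0.66, so genes that promote and genes that restrain G1 progression were both lower. Cdkn1a, the gene of p21, did not pass, with 9.22 and 9.41 in BORG/sgTRIM28 cells and 9.22 and 10.24 in BORG cells (-0.41, limma adjusted p = 0.505). Of 37 apoptosis regulators 9 fell and 3 rose. The survival gene Bcl2l1 (-1.37) and the initiator caspase gene Casp8 (-1.09) were among the falls, and Casp1 (1.04), Casp12 (0.97) and Pmaip1 (0.88), the gene of NOXA, were the rises. The 9 falls came to 1 without either BORG/sgTRIM28 replicate and to 2 without BORG replicate 1.

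The sequence before the start of the gene is shown for 3 S phase members with a match to 1 of 2 E2F motif forms. The forms are TTTGGCGC and TTTCCCGC on either strand. Of the 38 S phase genes with a promoter in RefSeq 12 (31.6%) held either form between 250 bases before and 50 bases after a start, against 2.37% of all 16918 genes matched to a promoter. The list was written from known genes and counts members called and not called. The share therefore describes the list and not the change, and it has no test. The 80 bases below are on the strand of the gene, with the motif in capitals, from RefSeq on GRCm38.p6. They lie at chr8:75109324-75109403 (plus strand) for Mcm5, chr5:138172005-138172084 (minus strand) for Mcm7 and chr11:98907977-98908056 (plus strand) for Cdc6.
Mcm5: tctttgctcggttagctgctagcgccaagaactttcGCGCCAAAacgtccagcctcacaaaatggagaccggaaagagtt
Mcm7: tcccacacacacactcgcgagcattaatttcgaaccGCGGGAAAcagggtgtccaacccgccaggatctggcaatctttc
Cdc6: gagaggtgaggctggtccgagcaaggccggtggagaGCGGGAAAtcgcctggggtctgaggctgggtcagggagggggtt
The motif began 149, 165 and 138 bases before the start of Mcm5, Mcm7 and Cdc6. A match describes the letters of the window and not a bound site.

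Among genes of RNA processing nearly all calls were rises. Of 50 splicing factors 21 were higher and 0 lower, at a median log2 change of 0.51 against 0.06 over all genes. Srsf2, an SR protein that selects exons, had log2 signals of 11.68 and 11.78 in BORG/sgTRIM28 cells, 10.68 and 10.75 in BORG cells and 11.54 and 11.64 in parental cells (log2 change 1.02, limma adjusted p = 0.00541). Hnrnph1, a heterogeneous nuclear ribonucleoprotein, had 9.63 and 9.61 in BORG/sgTRIM28 cells, 8.47 and 8.64 in BORG cells and 9.59 and 9.58 in parental cells (1.06, limma adjusted p = 0.00507). Their BORG arrays lay about 1 log2 unit under both other groups. U2af2 (1.04), which binds the polypyrimidine tract, Tra2a (0.99) and the core protein gene Snrpb (0.89) were further examples. Of 78 small nucleolar RNA genes 9 rose and 1 fell, with Snord19 at 1.03 and Snord53 at 0.90. Of 64 cytosolic ribosomal protein genes 7 rose and 0 fell, led by Rpl37 at 1.09. In the last 2 lists the shares called, 12.8% and 10.9%, were close to the 12.5% of all genes. Their shares higher were 11.5% and 10.9%, against 5.08% of all genes. These rises were modest in size and sensitive to single arrays. The 21 splicing calls came to 2 without either BORG/sgTRIM28 replicate and to 4 without BORG replicate 1, the 9 small nucleolar RNA calls to 0 or 1 without BORG/sgTRIM28 replicate 1 or 2, to 0 without BORG replicate 1 and to 4 without BORG replicate 2, and the 7 ribosomal calls to 1 without either BORG/sgTRIM28 replicate and 4 without BORG replicate 1.

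**Figure D3:**
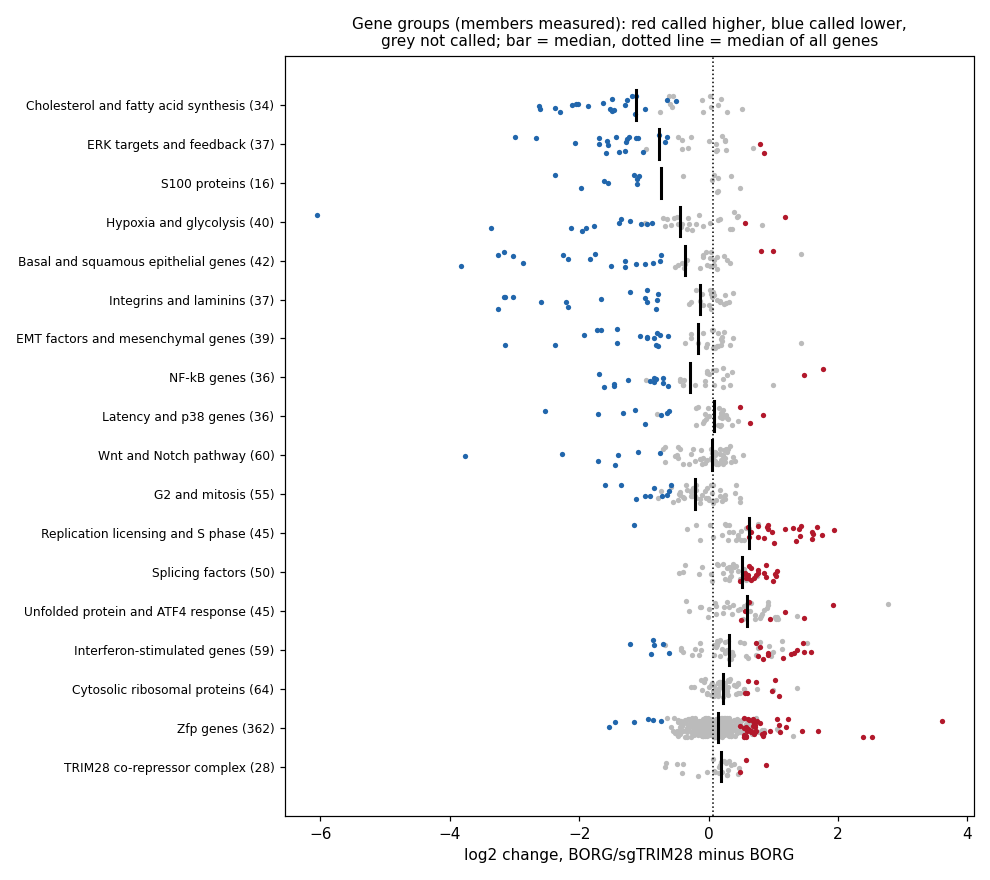
Log2 change (BORG/sgTRIM28 minus BORG) of every measured member of 18 gene groups, with red for called higher, blue for called lower, grey for not called, a bar at the group median and a dotted line at the median of all genes (0.06). Cholesterol synthesis (median -1.13) and ERK targets (-0.76) sit to the left, and S phase genes (0.63), splicing factors (0.51) and the unfolded protein response (0.60) to the right.

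Many of the genes that ERK signaling induces fell, as did some growth factor ligands. ERK is the kinase at the end of the RAS pathway, and it induces early transcription factors along with its own inhibitors. Of 37 ERK targets and feedback genes 20 were lower and 2 higher, at a median log2 change of -0.76. Hbegf, a ligand of the EGF receptor, had log2 signals of 7.62 and 7.36 in BORG/sgTRIM28 cells, 10.41 and 10.57 in BORG cells and 7.31 and 7.45 in parental cells (log2 change -3.00, limma adjusted p = 0.000454). The early transcription factor Egr1 had 6.71 and 6.88 in BORG/sgTRIM28 cells, 9.39 and 9.55 in BORG cells and 7.00 and 7.21 in parental cells (-2.67, limma adjusted p = 0.000585). Both were close to parental cells without TRIM28. The feedback genes Dusp5, a phosphatase of nuclear ERK, and Spred3, an inhibitor of RAS signaling, fell by 2.06 and 1.70. The 2 rises were Dusp4, another phosphatase, by 0.85, and Jun, an AP-1 subunit, by 0.79. Of 54 ligands and receptors of the EGF, FGF, PDGF and VEGF families 14 fell and 2 rose. Btc, a second EGF receptor ligand, had 6.32 and 5.95 in BORG/sgTRIM28 cells, against 9.39 and 9.08 in BORG cells (-3.10, limma adjusted p = 0.000698). Pgf, of the VEGF family, fell by 2.13, the ERBB ligand Nrg1 by 1.76, and the receptors Pdgfrb and Egfr by 1.72 and 1.51. The rises were Fgf21 and Pdgfra, which had 12.02 and 12.04 in BORG/sgTRIM28 cells and 10.93 and 11.15 in BORG cells (0.99, limma adjusted p = 0.00741). The fall of Pdgfrb and the rise of Pdgfra gave the PDGF receptors opposite directions. Without BORG/sgTRIM28 replicate 2 the 20 and 14 falls came to 13 and 7.

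Several genes of the p38 kinase branch, which is associated with tumor cell latency, also fell. In this branch Map2k3 and Map2k6 phosphorylate the p38 kinases, and Mapkapk3 acts below them. Map2k6 had log2 signals of 4.24 and 4.28 in BORG/sgTRIM28 cells, 7.14 and 6.42 in BORG cells and 4.92 and 4.94 in parental cells (log2 change -2.53, limma adjusted p = 0.00312). Mapk13, the p38 delta isoform, had 7.56 and 7.37 in BORG/sgTRIM28 cells, 9.23 and 9.12 in BORG cells and 8.88 and 8.78 in parental cells (-1.71, limma adjusted p = 0.00143). Mapk13 was lower than in parental cells as well (-1.37, limma adjusted p = 0.0306). Mapkapk3, Map2k3 and Mapk11, p38 beta, fell by 1.32, 1.14 and 0.99. Mapk14, p38 alpha, did not pass, at 0.15 (limma adjusted p = 0.486). Of the 36 genes of the latency and p38 list 8 fell and 3 rose, at a median of 0.08, and Gas1, a growth arrest gene, was among the rises at 0.84. The 8 falls came to 4 or 2 without BORG/sgTRIM28 replicate 1 or 2 and to 5 without BORG replicate 1.

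In the TGF-beta and BMP pathways, several ligands and receptors fell while Id genes rose. Of 48 ligands, receptors and regulators 11 were lower and 3 higher. Tgfb1 had log2 signals of 9.05 and 8.88 in BORG/sgTRIM28 cells, 11.39 and 11.16 in BORG cells and 9.96 and 9.97 in parental cells (log2 change -2.31, limma adjusted p = 0.000712). Its receptor gene Tgfbr2 had 7.29 and 7.44 in BORG/sgTRIM28 cells, 9.26 and 9.08 in BORG cells and 8.16 and 8.10 in parental cells (-1.81, limma adjusted p = 0.00117). The activin subunit gene Inhba fell by 1.71, the activin antagonists Fst and Fstl3 by 2.01 and 1.20, and Bmp1, a protease that matures matrix and ligands, by 1.05. The falls thus held both agonists and antagonists. Of 27 target genes 5 rose and 5 fell. Id2, an inhibitor of basic helix-loop-helix factors and a BMP target, had 10.95 and 11.09 in BORG/sgTRIM28 cells, 9.11 and 8.90 in BORG cells and 9.94 and 9.89 in parental cells (2.01, limma adjusted p = 0.000963). Id3 and the transcription factor gene Gata2 rose by 1.25 and 1.20, whereas Col1a1, Cdkn2b and Hey1 fell by 1.29, 1.36 and 1.09. The 11 falls came to 6 or 4 without BORG/sgTRIM28 replicate 1 or 2 and to 6 without BORG replicate 1, the 3 rises to 0 without any 1 of these 4 arrays, and the 5 target falls to 1 without BORG/sgTRIM28 replicate 2.

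A Notch ligand and some known Notch targets fell. Dll4, a Notch ligand, had log2 signals of 4.58 and 5.33 in BORG/sgTRIM28 cells, 9.25 and 8.18 in BORG cells and 5.22 and 5.30 in parental cells (log2 change -3.76, limma adjusted p = 0.00482). Nrarp, a feedback inhibitor that Notch induces, had 7.46 and 7.58 in BORG/sgTRIM28 cells, 9.97 and 9.59 in BORG cells and 7.84 and 7.90 in parental cells (-2.26, limma adjusted p = 0.0012). Hey2, a transcriptional repressor and Notch target, had 6.07 and 6.24 in BORG/sgTRIM28 cells, 7.90 and 7.83 in BORG cells and 6.70 and 6.64 in parental cells (-1.71, limma adjusted p = 0.00116). In all 3 genes the BORG arrays stood alone. Of 60 Wnt and Notch genes 7 fell and 0 rose at a median of 0.05, a share called (11.7%) close to the 12.5% of all genes. The Wnt co-receptor gene Lrp5 (-1.40) and the R-spondin receptor gene Lgr6 (-1.44) were among the falls. Without BORG/sgTRIM28 replicate 2 the 7 falls came to 3.

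Calls among epithelial adhesion genes were nearly all falls, though most members did not pass the threshold. Hemidesmosomes fix basal epithelial cells to laminin-332 through the integrin of Itga6 and Itgb4. Itga6 had log2 signals of 7.65 and 7.55 in BORG/sgTRIM28 cells, 10.95 and 10.77 in BORG cells and 7.66 and 7.75 in parental cells (log2 change -3.26, limma adjusted p = 0.000354). Itgb4 averaged 6.19 in BORG/sgTRIM28 cells, 9.22 in BORG cells and 6.24 in parental cells (n = 2 arrays each, -3.03 with standard error 0.16, limma adjusted p = 0.000684). Lamb3, a chain of laminin-332, had 6.30 and 6.62 in BORG/sgTRIM28 cells, 9.47 and 9.76 in BORG cells and 6.96 and 6.78 in parental cells (-3.16, limma adjusted p = 0.000669). All 3 were high in BORG cells alone. Of 37 integrins and laminins 15 fell and 0 rose at a median of -0.13, including Itgb3 (-3.15), Itga2 (-2.59) and Itga3 (-2.20). Of 42 basal and squamous epithelial genes 17 fell and 2 rose, at a median of -0.37. The keratins Krt6a and Krt16 fell by 3.83 and 1.83, the desmosome gene Pkp1 by 2.25 and the kallikrein gene Klk10 by 2.87, and the rises were Krt17 (0.81) and Slpi (0.99), a protease inhibitor. Of 39 genes of mesenchymal cells and of epithelial-mesenchymal transition 16 fell and 0 rose, with the matrix protein Tnc at -1.92, the hyaluronan receptor Cd44 at -1.42 and the transcription factors Zeb1 and Snai1 at -1.42 and -1.06. Basal and mesenchymal genes therefore moved in the same direction, and the lists overlap in part, with Itga6, Itgb4, Lama3 and Lamb3 in both the adhesion and the basal list and Itgav, Itgb1, Itgb3, Itga5 and Itgb5 in both the adhesion and the mesenchymal list. Cldn1, a tight junction gene, fell by 2.28 and Cldn12 rose by 1.02. The adhesion, basal and mesenchymal falls came to no fewer than 10, 11 and 8 under the limma alternatives.

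Calls among collagens, matrix proteases and S100 genes were also mostly falls. Of 44 collagen genes 10 fell and 0 rose (22.7% lower, against 7.44% of all genes). Their median log2 change was 0.07, against 0.06 over all genes. Col6a3 had log2 signals of 7.18 and 7.12 in BORG/sgTRIM28 cells, 10.96 and 10.69 in BORG cells and 8.01 and 7.92 in parental cells (log2 change -3.67, limma adjusted p = 0.000324), and Col5a3 fell by 3.42, to a level under parental cells (-1.37, limma adjusted p = 0.0244). Of 80 matrix proteases and inhibitors 16 fell and 1 rose (20% lower), at a median of -0.00. Plau, the urokinase gene, had 7.13 and 7.10 in BORG/sgTRIM28 cells, 10.58 and 10.02 in BORG cells and 6.88 and 7.21 in parental cells (-3.18, limma adjusted p = 0.00116). The sheddase gene Adam8 fell by 3.00, Adamts5 by 2.09 and Mmp19 by 1.95, and the inhibitors Timp1, Timp2 and Timp3 fell too, by 1.67, 1.35 and 1.38. Of 16 S100 genes, which encode small calcium-binding proteins, 8 fell and 0 rose (50% lower), at a median of -0.74. S100a4, a marker of motile cells, had 8.62 and 8.63 in BORG/sgTRIM28 cells, 11.26 and 10.73 in BORG cells and 9.20 and 9.19 in parental cells (-2.37, limma adjusted p = 0.00179), and S100a6 fell by 1.97. Of 67 semaphorin, plexin and axon guidance genes 16 fell and 2 rose (23.9% lower), at a median of -0.01. The guidance ligand Slit2 fell by 3.37, whereas Sema3e had 8.95 and 8.86 in BORG/sgTRIM28 cells, 7.50 and 7.48 in BORG cells and 7.07 and 7.11 in parental cells, above both (1.41 over BORG cells, limma adjusted p = 0.00162, and 1.82 over parental cells, limma adjusted p = 0.0121). The 16 protease falls came to 7 or 8 without BORG/sgTRIM28 replicate 1 or 2, the 16 guidance falls to 7 without either and the 10 collagen falls to 6 without replicate 2.

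Cholesterol synthesis was the list with the lowest median. Of 34 genes of cholesterol and fatty acid synthesis 21 fell and 0 rose, at a median log2 change of -1.13. Dhcr7, the last enzyme of cholesterol synthesis, had log2 signals of 8.17 and 8.16 in BORG/sgTRIM28 cells, 10.84 and 10.73 in BORG cells and 8.66 and 8.76 in parental cells (log2 change -2.62, limma adjusted p = 0.000392). Fdps, which makes farnesyl pyrophosphate, had 7.91 and 7.84 in BORG/sgTRIM28 cells, 10.73 and 10.22 in BORG cells and 8.07 and 8.04 in parental cells (-2.60, limma adjusted p = 0.00131). The falls ran along the pathway, from Hmgcs1 (-2.11) and Pmvk (-2.30) to Nsdhl (-2.05) and Hsd17b7 (-2.38), and Srebf2, the transcription factor that controls it, fell by 1.50. The 21 falls came to 15 without the parental arrays, 18 with the replicate block and 24 with median centring. The count dropped further when either BORG/sgTRIM28 replicate was left out, which leaves a lone array in that group. Under the limma alternatives the median of the list lay between -1.33 and -0.87.

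Among genes of hypoxia and glycolysis falls outnumbered rises. Of 40 such genes 12 were lower and 2 higher, at a median log2 change of -0.45. Car9, carbonic anhydrase 9, had log2 signals of 7.42 and 7.11 in BORG/sgTRIM28 cells, 10.98 and 10.26 in BORG cells and 6.06 and 5.71 in parental cells (log2 change -3.36, limma adjusted p = 0.00194). A second Car9 cluster changed by -0.75. P4ha2 and Plod1, which modify collagen, fell by 1.95 and 1.77, the glycolytic gene Pfkm by 2.12 and the oxygen sensor Egln3 by 1.89. Stc1 is a member of this list too. The rises were Stc2 (1.18), a paralogue of Stc1, and Kdm3a (0.56), a histone demethylase. The 12 falls came to 5 without either BORG/sgTRIM28 replicate and to 19 without BORG replicate 2.

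Among stress response genes, the calls of the unfolded protein and ATF4 response were all rises and those of NRF2 targets divided. Of 45 unfolded protein and ATF4 genes 7 rose and 0 fell, with 38 not called, at a median of 0.60. The share called was 15.6%, against 12.5% of all genes. Dnajb9, a chaperone partner in the endoplasmic reticulum, had log2 signals of 11.25 and 11.44 in BORG/sgTRIM28 cells, 9.93 and 9.79 in BORG cells and 11.54 and 11.55 in parental cells (log2 change 1.48, limma adjusted p = 0.00211), and its partner Hspa5 rose by 0.56. Atf3, a stress transcription factor, rose by 1.92 with BORG replicates of 7.75 and 9.09. The 7 rises came to 28 without BORG replicate 2 and to 1 without either BORG/sgTRIM28 replicate. Nqo1, a quinone reductase and NRF2 target, had 7.74 and 7.72 in BORG/sgTRIM28 cells, 11.04 and 10.36 in BORG cells and 7.86 and 8.06 in parental cells (-2.97, limma adjusted p = 0.00177). Hmox1, heme oxygenase, moved the other way, with 10.97 and 10.96 in BORG/sgTRIM28 cells, 9.28 and 9.41 in BORG cells and 10.25 and 10.23 in parental cells (1.63, limma adjusted p = 0.00113). Of 35 genes of this list 9 fell and 3 rose (34.3% called), with Hmox1 joined by the glutathione synthesis genes Gclc (0.81) and Gclm (0.64). Of 36 genes of fatty acid oxidation and PPAR targets 6 rose and 3 fell (25% called). The rises included Fgf21 (2.19), Pdk4 (1.89) and Acot1 (1.38), and the falls were the nuclear receptor gene Ppard (-2.40), the fatty acid carrier Fabp4 (-1.60) and Acaa2 (-0.83), a thiolase. Of 48 lysosome and autophagy genes 6 rose and 7 fell (27.1% called). Gpnmb, Creg1 (1.68) and the galactosidase gene Gla (1.25) rose, and Wipi1 (-1.37) and Atg9b (-1.33), of autophagy, and the hydrolase gene Naglu (-0.88) fell. Without BORG/sgTRIM28 replicate 1 or 2 the 9 falls of the NRF2 list came to 3 or 2, the 6 PPAR list rises to 2 or 1 and the 7 lysosome list falls to 1 or 0.

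Genes of the circadian clock were called in both directions. Cry1, a repressor of the clock, had log2 signals of 8.60 and 8.59 in BORG/sgTRIM28 cells, 7.06 and 7.55 in BORG cells and 8.60 and 8.77 in parental cells (log2 change 1.29, limma adjusted p = 0.0115). Nr1d1, a nuclear receptor of the second clock loop, had 8.08 and 8.26 in BORG/sgTRIM28 cells, 9.87 and 9.81 in BORG cells and 8.78 and 9.01 in parental cells (-1.67, limma adjusted p = 0.00191), and Per3 fell by 1.04. The labels do not state the time of day of harvest. Of the 31 glucocorticoid and circadian genes 5 rose and 5 fell. The 5 rises came to 1 without either BORG/sgTRIM28 replicate and to 8 without BORG replicate 2, and the 5 falls to 1 or 2 without BORG/sgTRIM28 replicate 1 or 2 and to 2 without BORG replicate 1.

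Interferon-stimulated genes rose more often than they fell. Of 59 measured 13 were higher and 6 lower (32.2% called, against 12.5% of all genes), at a median log2 change of 0.31. Stat2, a transcription factor of type I interferon signaling, had log2 signals of 9.50 and 9.54 in BORG/sgTRIM28 cells, 7.77 and 8.32 in BORG cells and 8.40 and 8.41 in parental cells (log2 change 1.48, limma adjusted p = 0.00886). Nlrc5, which activates MHC class I genes, had 7.06 and 7.08 in BORG/sgTRIM28 cells, 5.64 and 5.58 in BORG cells and 7.48 and 7.70 in parental cells (1.46, limma adjusted p = 0.00221). Stat2 was highest without TRIM28 and Nlrc5 lowest in BORG cells. The antiviral genes Mx2 and Rsad2 rose by 1.58 and 1.32, though their BORG replicates were well apart (6.85 and 7.97 for Mx2, 8.73 and 9.64 for Rsad2), and Oas2 and Irf7 fell by 1.21 and 0.86. Of 30 antigen presentation genes 4 rose and 2 fell (20% called). The peptidase gene Erap1 (0.97) and the immunoproteasome gene Psmb8 (0.96) were among the rises. Of 28 nucleic acid sensors and adaptors 2 rose, Cgas (0.83) and Zbp1 (0.76), and 2 fell. That share called, 14.3%, was close to the 12.5% of all genes. The 13 rises came to 1 or 2 without BORG/sgTRIM28 replicate 1 or 2, to 6 without BORG replicate 1 and to 25 without BORG replicate 2.

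Among inflammatory and immune checkpoint genes falls outnumbered rises, though most members did not pass. Of 36 NF-kB genes 12 were lower and 2 higher. Tnfaip3, the NF-kB inhibitor A20, had log2 signals of 5.78 and 5.76 in BORG/sgTRIM28 cells, 7.46 and 7.49 in BORG cells and 6.11 and 6.25 in parental cells (log2 change -1.70, limma adjusted p = 0.00101). The rises were Lcn2 (1.76) and Saa3 (1.48), an iron carrier and an acute phase protein. Of 58 chemokines and receptors 7 fell and 1 rose (13.8% called, against 12.5% of all genes). Cxcl3, which attracts neutrophils, had 8.30 and 8.25 in BORG/sgTRIM28 cells, 11.64 and 11.17 in BORG cells and 9.26 and 9.13 in parental cells (-3.13, limma adjusted p = 0.000696). The neutrophil chemokines Cxcl1 and Cxcl5 fell by 1.61 and 1.47, and Cx3cl1 (-2.11) and the scavenging receptor gene Ackr3 (-2.41) were lower too. Of 77 interleukins and receptors 8 fell and 3 rose (14.3% called), among them Il34, a CSF1 receptor ligand (-2.78), and Osmr, the oncostatin M receptor (1.41). Of 30 checkpoint genes 8 fell and 1 rose. Beside Havcr2 and Ptpn22 these were Tnfrsf9 (-2.91), Ceacam1 (-2.59), Tigit (-2.30), Nt5e (-1.97), the gene of CD73, Cd276 (-1.81), the gene of B7-H3, and Cd200 (-1.76). Of the 18 leukocyte markers Cd14 fell with them, with 7.61 and 7.74 in BORG/sgTRIM28 cells and 9.36 and 9.32 in BORG cells, and Ptprc had 3.45 and 3.64 in BORG/sgTRIM28 cells and 3.61 and 3.39 in BORG cells. The summed log2 signal of these markers was 9.73 and 9.76 in BORG/sgTRIM28 cells and 10.29 and 10.31 in BORG cells. Only Cd14 and Cd68 of these 18 lay above the 95th percentile of the olfactory set on average. Cd68 averaged 8.31 in BORG/sgTRIM28 and 8.21 in BORG cells, so the difference in the sum mainly reflected Cd14. Its part in the result was not tested. The 12 falls of the NF-kB list came to 5 without either BORG/sgTRIM28 replicate and the 8 interleukin falls to 4 or 3, while the chemokine and checkpoint falls stayed at 6 or more.

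**Figure D4:**
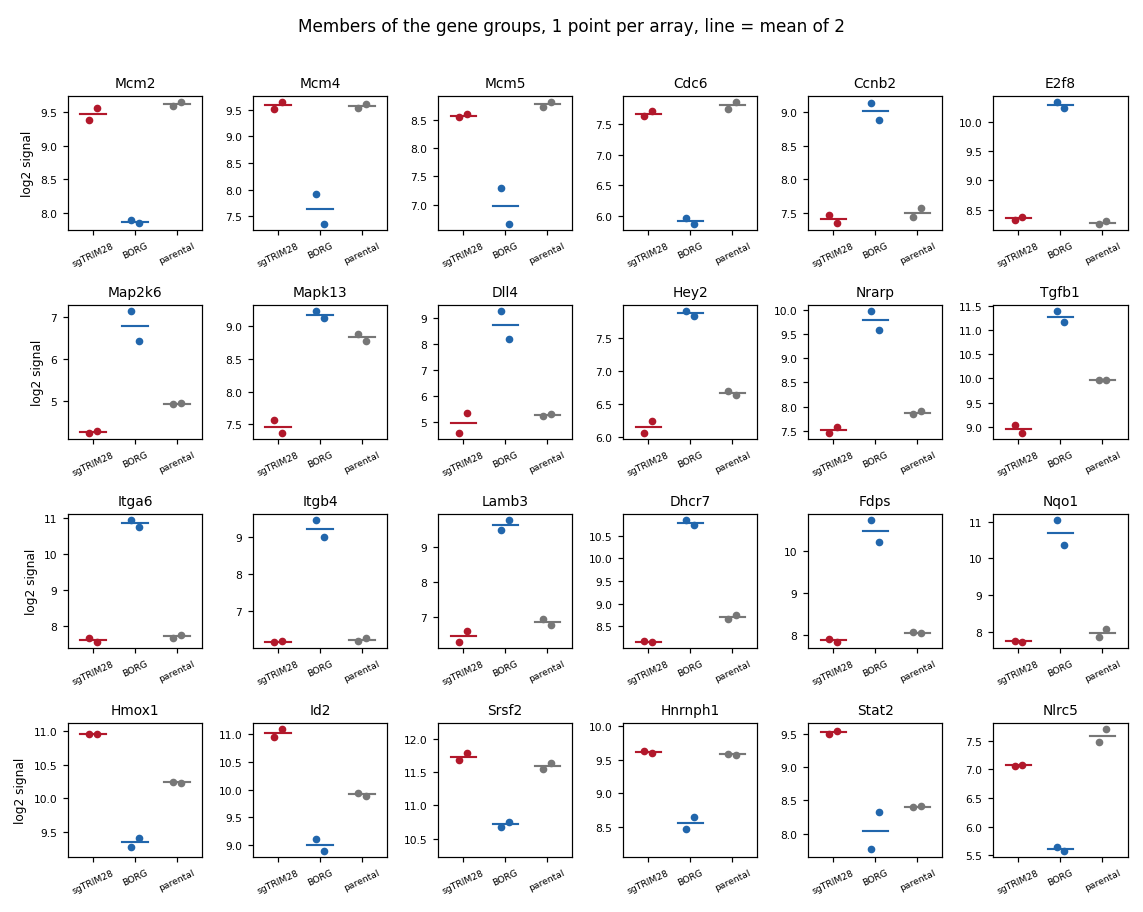
Log2 signal of each array for 24 genes of the groups described, with BORG/sgTRIM28 on the left, BORG in the middle, parental cells on the right and a line at the mean of each pair. Mcm2 and Cdc6 are low in BORG cells alone, Itga6 and Fdps are high in BORG cells alone, and Mapk13 and Tgfb1 are lowest in BORG/sgTRIM28 cells.

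Genes of microRNAs, short RNAs that repress transcripts through a seed of 7 bases, were measured as clusters over their loci, which can read the primary transcript and not the mature RNA. Of 474 measured 13 were lower and 7 higher (4.22% called, against 12.5% of all genes) at a median log2 change of 0.02. Only 140 of the 474 lay above the 95th percentile of the olfactory set, against 12246 of all 22180 genes. The 2 shares called were thus not compared at like brightness. The mature sequences of the members with the clearest biology are given below from RefSeq on GRCm38.p6, 5′ to 3′, with the seed (bases 2 to 8) in capitals. They are shown to compare seeds. The 3p sequences of Mir221 and Mir222 share the seed GCUACAU, and the others printed have seeds of their own. Levels of the mature RNAs were not measured.
miR-221-3p: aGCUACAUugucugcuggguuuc
miR-222-3p: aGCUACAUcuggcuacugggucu
miR-205-5p: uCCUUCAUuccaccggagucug
miR-125b-5p: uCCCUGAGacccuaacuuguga
miR-31-5p: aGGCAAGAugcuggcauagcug
miR-23a-3p: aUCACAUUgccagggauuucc
miR-27a-3p: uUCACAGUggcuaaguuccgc
miR-29a-3p: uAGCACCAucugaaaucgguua
miR-708-5p: aAGGAGCUuacaaucuagcuggg
Mir221 and Mir222 are neighbours on chromosome X (mature sequences at chrX:19146307-19146329 and chrX:19146901-19146923, minus strand), and Mir23a and Mir27a on chromosome 8 (chr8:84208563-84208583 and chr8:84208727-84208747, plus strand).

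The cluster of Mir221 had log2 signals of 4.46 and 4.22 in BORG/sgTRIM28 cells, 6.10 and 6.18 in BORG cells and 4.48 and 4.16 in parental cells (log2 change -1.80, limma adjusted p = 0.00256). Mir222 had 3.88 and 4.16 in BORG/sgTRIM28 cells, 5.49 and 4.86 in BORG cells and 4.16 and 4.36 in parental cells (-1.15, limma adjusted p = 0.0331). Both were high in BORG cells alone, at dim levels. Mir205, a microRNA of basal epithelium, had 5.19 and 5.10 in BORG/sgTRIM28 cells, 6.27 and 6.74 in BORG cells and 4.46 and 4.30 in parental cells (-1.36, limma adjusted p = 0.00918). Mir125b-1 fell by 1.30 and Mir29a by 0.80. Brighter clusters fell by less. Mir31 had 9.04 and 8.65 in BORG/sgTRIM28 cells and 9.63 and 9.52 in BORG cells (-0.73, limma adjusted p = 0.0407), and Mir23a and Mir27a fell by 0.74 and 0.64. Mir708 rose, with 4.82 and 4.62 in BORG/sgTRIM28 cells, 3.78 and 3.68 in BORG cells and 4.94 and 4.65 in parental cells (0.99, limma adjusted p = 0.0134). The 13 falls came to 3 or 2 without BORG/sgTRIM28 replicate 1 or 2 and to 5 without BORG replicate 1, and the 7 rises to 1 without either BORG/sgTRIM28 replicate and to 2 without BORG replicate 1.

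**Figure D5:**
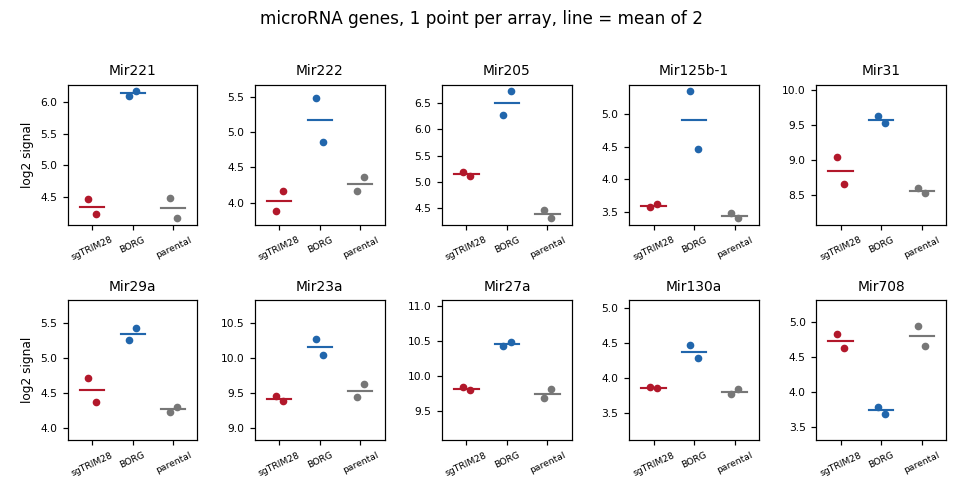
Log2 signal of each array for 10 microRNA genes, with BORG/sgTRIM28 on the left, BORG in the middle, parental cells on the right and a line at the mean of each pair. Mir221, Mir222 and Mir125b-1 stand out in BORG cells, and Mir708 is low in BORG cells alone.

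Promoters of the genes that fell held the AP-1 motif more often than other promoters. AP-1 dimers of FOS and JUN proteins bind TGACTCA, which was found on either strand in 7.7% of 1311 genes called lower, in 3.71% of 889 called higher, in 5.52% of all 16918 genes and in 4.74% of the 9570 genes above the olfactory level. The windows of 3 genes that fell are shown with the motif in capitals, at chr3:95739590-95739669 (minus strand) for Ecm1, chr4:43506913-43506992 (plus strand) for Car9 and chr3:93520324-93520403 (plus strand) for S100a11, which fell by 3.82, 3.36 and 1.11.
Ecm1: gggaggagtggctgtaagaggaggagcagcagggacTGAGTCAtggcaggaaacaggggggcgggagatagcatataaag
Car9: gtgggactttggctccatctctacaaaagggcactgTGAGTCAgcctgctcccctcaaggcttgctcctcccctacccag
S100a11: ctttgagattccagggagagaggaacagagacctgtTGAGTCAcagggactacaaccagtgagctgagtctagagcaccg
The motif started 64, 77 and 136 bases before the start of Ecm1, Car9 and S100a11.

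Among the genes called higher, the E2F forms TTTGGCGC and TTTCCCGC were found in 2.36% and 4.16%, against 1.07% and 2.29% of genes called lower and 1.14% and 2.39% of the genes above the olfactory level. The interferon-stimulated response element motif was found in 4.16% of genes called higher and 3.46% of that brighter set, so those shares were close. In the unfolded protein and ATF4 list, 7 of 38 genes with a promoter (18.4%) held TTGCATCA, the amino acid response motif, against 0.887% of all genes. Fgf21, in the list of PPAR targets, held it as well, and is shown with Atf3 at chr7:45615586-45615665 and chr1:191183400-191183479, both on the minus strand.
Atf3: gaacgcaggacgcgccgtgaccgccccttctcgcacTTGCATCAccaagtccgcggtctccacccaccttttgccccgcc
Fgf21: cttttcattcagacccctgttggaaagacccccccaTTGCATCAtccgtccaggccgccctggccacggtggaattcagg
These lists were written from known target genes, so a motif of that factor among them describes the lists. The shares have no test.

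Some genes called in the same direction lay side by side. In RefSeq order over 21994 matched genes, 8 runs of 3 or more neighbouring genes called higher held 26 genes. The 42 runs called lower held 138 genes. Over all genes 1126 (5.08%) were called higher and 1651 (7.44%) lower. The number of runs to expect from those shares was not worked out, so clustering was not tested. Zfp960, Zfp97, Gm38396 and Riok2 formed a run that rose at a median log2 change of 1.06, Zfp955b, Zfp81 and Zfp101 another at 0.74, and Rmdn2, Cyp1b1, Hnrnpll and Galm one more at 1.23. Cyp1b1, a cytochrome P450 of estrogen metabolism, had log2 signals of 9.51 and 9.43 in BORG/sgTRIM28 cells, 7.58 and 7.70 in BORG cells and 9.02 and 9.18 in parental cells (log2 change 1.83, limma adjusted p = 0.00103). Among the runs that fell were Mcl1, Adamtsl4, Ecm1 and Tars2 at a median of -2.29, Cflar, Casp8, Trak2 and Stradb at -0.75, Mtap, Cdkn2a and Cdkn2b at -0.66, Camk2g, Plau and Vcl at -1.49 and Tes, Cav2 and Cav1 at -1.01. The run of Mir23a, Mir27a and Zswim4 fell by 0.74 at its median. Neighbours can overlap, and the counting of probes on this array cannot always tell them apart.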

How the data were processed

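The authors grew the cells for 7 days in 3D-culture, extracted total RNA with TRIzol and hybridised it to Affymetrix Mouse Gene 2.0 ST arrays, 2 per group. The deposited log2 values were normalized by the authors, and the submitters' processing notes name Affymetrix Expression Console and Transcriptome Analysis Console. Software versions and the summarization method were not given in the sources used here, and no detection values were used. The labels call the arrays biological replicates.

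From these values, 3 group means were fitted over all 6 arrays with lmFit and eBayes (limma 3.58.1, R 4.3.3), which gave the contrast BORG/sgTRIM28 minus BORG. Benjamini-Hochberg adjustment ran over all 41345 clusters, and a gene was called at an adjusted p under 0.05. No further filter was set. An exact permutation test of 2 against 2 arrays cannot go below p = 0.333. The fit was tested on simulated data.

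Gene symbols came from the platform annotation, and promoters and microRNAs from RefSeq tables on GRCm38.p6. The 61 gene lists have counts and medians and no test. The members and lists were chosen with earlier results of these data known. The text names up to 25 of the largest rises and 25 of the largest falls among called genes with an established symbol and no overlap between groups, the 6 or fewer largest called changes per list, the markers, and Trim28, its neighbours and Cdkn1a. Other named genes, such as exceptions to a list's direction and members of neighbour runs, were chosen after their values were seen.

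No shared effect of the replicate number was visible, since deviations of same-numbered arrays correlated between -0.0415 and 0.0413. These values cannot tell if same-numbered cultures were grown or processed together, which the labels do not state. Alternatives were the replicate block, the 4 arrays alone, a variance trend, quantile normalization, median centring, brighter clusters only, 2 other ways to count genes, leaving out each array, and the methods' t-test.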

Additional observations from a re-analysis of the deposited data

How the results depend on the processing

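The fall of many more genes than rose at a 2-fold change held under every alternative run. The 2777 calls (1126 higher, 1651 lower) came to 1478 (444 higher, 1034 lower) with the 4 arrays alone, which is the same fit for this contrast as leaving out a parental array, and rose to 4319 (2027 higher) with 1 cluster per gene in the adjustment and 4271 (2000 higher) with the mean of a gene's clusters. With brighter clusters only, 1751 genes were higher. The labels number replicates alike, but no shared effect of these numbers was visible. With the replicate block 659 genes were higher and 1254 lower, 1882 of them among the 2777. Leaving out 1 array gave between 585 and 2947 calls, 113 to 1280 higher and 472 to 1667 lower, and at the 2-fold threshold 891 to 1491 genes, 191 to 509 of them higher and 700 to 982 lower. The lowest counts of calls came without BORG/sgTRIM28 replicate 2 and the highest without BORG replicate 2. In those fits the lone array is assumed to vary like the other groups. The methods' t-test made 0 calls after adjustment (0 higher, 0 lower), with 4313 genes at an unadjusted p under 0.05 and 856 also past 2-fold. Of 309 called genes under the rule for named genes, 27 lost their call with the replicate block, 9 with median centring and 141 without BORG/sgTRIM28 replicate 2. Uncalled changes near 0 turned sign for Zbtb45, to -0.03 with median centring, -0.04 without BORG replicate 2 and -0.06 without BORG/sgTRIM28 replicate 1, with a range over left-out arrays up to 0.13, and for Cdkn1a, to 0.10 without BORG replicate 2, in a range down to -0.93 without BORG replicate 1. With 2 arrays per group and no detection values, small changes and dim probes are the least certain.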

Other observations

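Further calls lay among transport, contraction and lipid mediator genes. Of 352 solute carrier genes 38 fell and 12 rose (14.2% called, against 12.5% of all genes), with the organic cation carrier Slc22a4 at a log2 change of -2.05 and the potassium-chloride cotransporter Slc12a4 at -1.88 among the falls, although a second Slc12a4 cluster changed by -0.14. Without BORG/sgTRIM28 replicate 1 or 2 the 38 falls came to 6 or 3 and the 12 rises to 1 or 0, without BORG replicate 1 to 14 and 3, and without BORG replicate 2 the rises came to 19. Of 42 YAP and SRF targets 10 fell and 1 rose, led by the actin-binding genes Cnn2 (-2.64) and Vcl (-1.49), while the classical targets Ccn1 and Ccn2 had log2 changes of -0.04 and -0.01 (limma adjusted p = 0.879 and 0.983). The 10 falls came to 4 without either BORG/sgTRIM28 replicate and to 5 without BORG replicate 1. Of 23 genes of prostaglandin and leukotriene enzymes 3 fell, Pla2g7 (-3.46), Cbr2 (-2.37) and Pla2g4a (-1.74), the gene of cytosolic phospholipase A2, and Aloxe3, an epidermal lipoxygenase, rose by 1.75. In the cyclic nucleotide list, Pde5a rose while Pde1b, Adcy7 and Pde9a fell by 2.06, 1.74 and 0.99.

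Hif1a, the oxygen-regulated subunit of the hypoxia factor, rose while several genes known to respond to it fell. It was singled out after its values were seen. Hif1a had log2 signals of 11.99 and 12.03 in BORG/sgTRIM28 cells, 10.17 and 10.79 in BORG cells and 11.80 and 11.79 in parental cells (log2 change 1.53, limma adjusted p = 0.0101), whereas Car9, Egln3, Pdk1 and Bnip3 fell by 3.36, 1.89, 1.38 and 1.35. Hif1a is known to be controlled mainly through the stability of its protein, which an array does not measure.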
